A study of Mus musculus with 8 samples.

Results

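The genes described here are Il1f6, Il1f8 and Il1f9, which encode the epithelial cytokines IL-36 alpha, IL-36 beta and IL-36 gamma and are now named Il36a, Il36b and Il36g. They were chosen by symbol, as the genes of the 3 cytokines that activate the IL-36 receptor, and are 3 of the 9294 genes with a value. Earlier results of these data were known when they were chosen. Each was read by 1 probe set (1418609_at for Il1f6, 1425715_at for Il1f8 and 1425958_at for Il1f9), and none of these has the suffix that marks probe sets with several possible targets. Signals were compared between 4 arrays of Nfkbiz KO keratinocytes and 4 arrays of wild-type keratinocytes, both of the mouse strain C57BL/6. Each of the 8 cultures had received v-rasHa, a viral oncogenic form of the Hras gene, by transduction for 3 days and had grown in regular, unstarved medium. Nfkbiz encodes IkBz, a nuclear protein that many secondary NF-kB target genes need for their induction. The labels call the arrays of a genotype biological replicates, and do not say how the knockout was made or whether cultures came from separate animals, so p-values measure the spread between these samples. No culture without v-rasHa was analysed here, and Nfkbiz and Hras were not among the genes analysed, so the values do not check the knockout or the transduction.

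The IL-36 cytokines belong to the interleukin-1 family. They bind the receptor Il1rl2, which pairs with the shared chain Il1rap and signals through Myd88 and the Irak kinases to NF-kB and MAP kinases. In skin, keratinocytes both make IL-36 and respond to it with chemokines, growth factors for neutrophils and antimicrobial proteins. In humans, loss of the receptor antagonist, encoded by the gene known in mice as Il1f5, causes a pustular form of psoriasis.

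Arrays were on a similar scale, with medians of 4.49 to 4.57 and lower quartiles of 3.33 to 3.39 on the log2 scale. The 9 keratinocyte markers analysed had mean log2 signals of 4.74 to 13.3 in Nfkbiz KO arrays and 4.63 to 13.4 in wild-type arrays. The basal keratin gene Krt5 and the E-cadherin gene Cdh1 were at the bright end of that range, and none of the 9 was called different between genotypes. With a variance trend in limma, Krt5 (log2 fold change -0.13, adjusted p = 0.00353) and Cdh1 (0.12, adjusted p = 0.0351) did pass, and every Nfkbiz KO array of Krt5 was below every wild-type array. No detection calls were used, so a low signal could not be told from background. In such cultures, fewer cells making a transcript and less of it per cell cannot be told apart.

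All 3 IL-36 genes fell in the Nfkbiz KO cultures, one of them far more than the others. In limma with Benjamini-Hochberg adjustment over the 9294 genes, 3 of 3 were lower at an adjusted p under 0.05, where 4.43% of all genes were called lower. The 3 were chosen with earlier results of these data known, so this count describes them and does not test them as a set. The Nfkbiz KO arrays lay below every wild-type array for 2 of the 3, Il1f6 and Il1f9, a separation found for 7.97% of all genes.

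Il1f6, the gene of IL-36 alpha, had log2 signals of 5.53, 5.87, 5.54 and 4.84 in the Nfkbiz KO arrays, against 8.40, 8.53, 8.67 and 8.58 in the wild-type arrays. The groups were far apart, and replicate 4 was the dimmest of the knockout arrays. Means were 5.44 ± 0.43 in Nfkbiz KO and 8.55 ± 0.11 in wild-type cultures (SD, n = 4 each), so the spread was wider among the knockout arrays. The log2 fold change was -3.11 ± 0.17 (SE), with a limma adjusted p of 1.01e-06. On the linear scale the signal was 8.61-fold lower, with a 95% interval of 6.62 to 11.2 from limma, which also draws on the variance of other genes. Of the 9294 genes, only Lcn2 had a lower log2 fold change, and its Nfkbiz KO mean of 3.18 was under every array's lower quartile, so that fold too describes signals only. Among the 9294 genes of its array, ranked by probe set brightness, Il1f6 stood at the 59.4, 62.9, 59.4 and 50.1 percentiles in Nfkbiz KO arrays. In wild-type arrays it stood between the 87.0 and 88.7 percentiles. The knockout signals lay 0.29 to 1.37 log2 units above the medians of all 11373 probe sets on their arrays. Signal and background could not be separated there, and the fold describes signals only.

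Il1f8, the gene of IL-36 beta, had log2 signals of 6.75, 7.13, 6.91 and 6.96 in Nfkbiz KO arrays, against 7.45, 7.61, 7.73 and 7.10 in wild-type arrays. The groups overlapped, because knockout replicate 2 was slightly brighter than wild-type replicate 4. Means were 6.94 ± 0.16 in Nfkbiz KO and 7.47 ± 0.27 in wild-type cultures (SD, n = 4 each). Il1f8 fell by 0.54 ± 0.12 (SE; limma adjusted p = 0.0212), a signal 1.45-fold lower with a 95% interval of 1.20 to 1.75. The call was lost without knockout replicate 1 or 3 or wild-type replicate 2 or 3, with log2 fold changes of -0.53 to -0.45 and limma adjusted p of 0.0557 to 0.0628.

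Il1f9, the gene of IL-36 gamma, had log2 signals of 8.69, 8.98, 8.91 and 8.92 in Nfkbiz KO arrays, against 9.30, 9.44, 9.50 and 9.20 in wild-type arrays. Every knockout array was below every wild-type array, although the gap between the nearest arrays was small. Means were 8.88 ± 0.13 in Nfkbiz KO and 9.36 ± 0.14 in wild-type cultures (SD, n = 4 each). Il1f9 fell by 0.49 ± 0.08 (SE; limma adjusted p = 0.00337), a signal 1.40-fold lower with a 95% interval of 1.23 to 1.59. Among the 9294 genes, it stood at the 89.2 to 91.3 percentiles of knockout arrays and the 92.6 to 93.9 percentiles of wild-type arrays. These ranks of probe set brightness do not order transcripts by abundance.

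**Figure D1:**
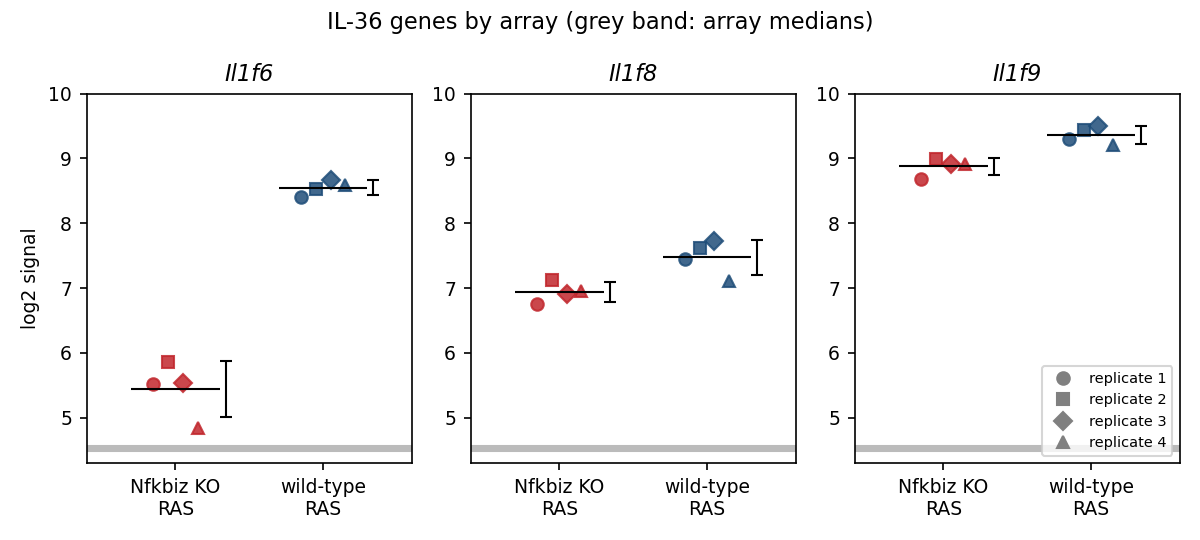
Log2 signal of Il1f6, Il1f8 and Il1f9 in each array, Nfkbiz KO RAS in red and wild-type RAS in blue, with symbols for the replicate number, a line at the mean, a bar of 1 SD on either side and a grey band over the array medians of 4.49 to 4.57. Il1f6 drops to between 4.84 and 5.87 in Nfkbiz KO arrays, against 8.40 to 8.67 in wild-type arrays, while Il1f8 overlaps between genotypes and Il1f9 separates narrowly.

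Whether the 3 genes changed by unequal amounts was tested on the difference between their log2 signals within each array, which removes anything shared by a whole array. Il1f6 minus Il1f8 averaged -1.49 ± 0.43 in Nfkbiz KO and 1.08 ± 0.27 in wild-type arrays (SD, n = 4 each). The log2 fold change of Il1f6 minus that of Il1f8 was therefore -2.57 ± 0.25 (SE), with an exact two-sided permutation p of 0.0286, the smallest that 4 against 4 arrays can give, and 0.0429 adjusted over the 3 pairs. Against Il1f9 the difference was -2.62 ± 0.23, with the same exact permutation p of 0.0286 and adjusted value of 0.0429. In both comparisons every Nfkbiz KO array was below every wild-type array.

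Il1f8 and Il1f9 could not be told apart in their change. Il1f8 minus Il1f9 averaged -1.94 ± 0.06 in Nfkbiz KO and -1.89 ± 0.14 in wild-type arrays (SD, n = 4 each), a difference of -0.05 with a 95% interval of -0.24 to 0.14 (exact permutation p = 0.514, also after adjustment). This interval bounds the difference and does not show that the changes were equal. The 2 genes also ranked the arrays alike within each genotype. Both were highest in replicate 2 and lowest in replicate 1 among knockout arrays, and highest in replicate 3 and lowest in replicate 4 among wild-type arrays, with the remaining arrays in the same order. Of the other 9293 genes, 34 (0.366%) shared this full order with Il1f9, Il1f8 and the calprotectin subunit gene S100a9 among them. Il1f6 had another order, with knockout replicate 4 and wild-type replicate 1 lowest.

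**Figure D2:**
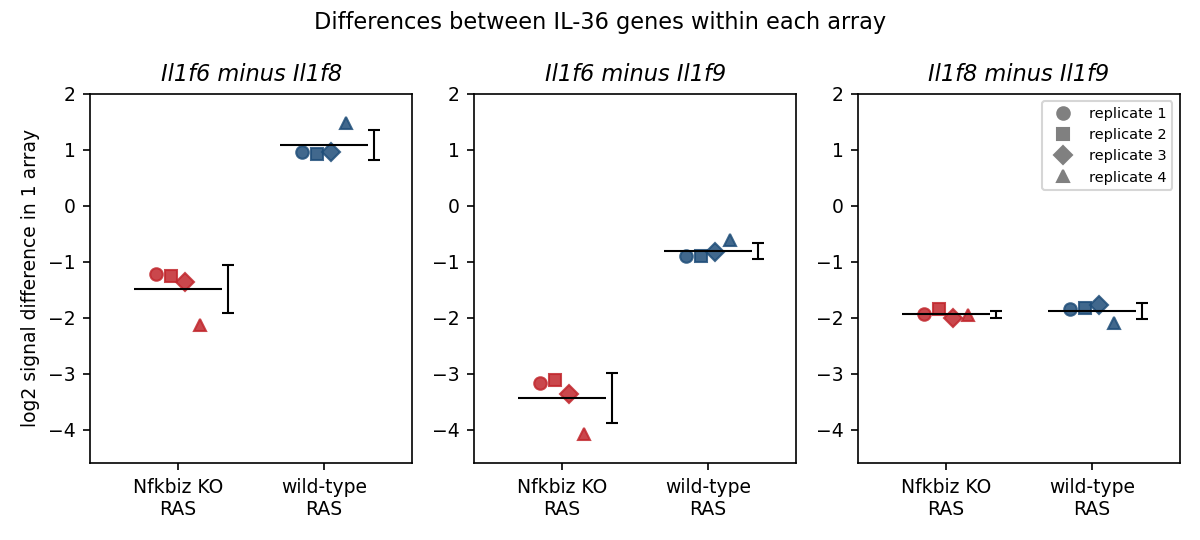
Difference in log2 signal between pairs of IL-36 genes within each array, Nfkbiz KO RAS in red and wild-type RAS in blue, with a line at the mean and a bar of 1 SD on either side. Il1f6 minus Il1f8 and Il1f6 minus Il1f9 are lower in all Nfkbiz KO arrays, while Il1f8 minus Il1f9 stays near -1.9 in both genotypes.

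The genes lie side by side on mouse chromosome 2, in the order Il1f8, Il1f9, Il1f6, with Il1f5, Il1f10 and Il1rn following. The 250 bases before the annotated starts of Il1f8 and Il1f9 are shown, from the promoter table of RefSeq for GRCm38.p6. That table held these 2 of the 3 genes and not Il1f6. Both are on the plus strand, Il1f8 at chr2:24152922-24153171 and Il1f9 at chr2:24186226-24186475, written 5′ to 3′ with capitals where a searched motif matched.
Il1f8: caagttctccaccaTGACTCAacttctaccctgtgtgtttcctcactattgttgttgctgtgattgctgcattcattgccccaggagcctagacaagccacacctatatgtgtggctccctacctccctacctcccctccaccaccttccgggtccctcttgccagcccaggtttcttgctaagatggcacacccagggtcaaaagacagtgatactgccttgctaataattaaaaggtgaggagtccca
Il1f9: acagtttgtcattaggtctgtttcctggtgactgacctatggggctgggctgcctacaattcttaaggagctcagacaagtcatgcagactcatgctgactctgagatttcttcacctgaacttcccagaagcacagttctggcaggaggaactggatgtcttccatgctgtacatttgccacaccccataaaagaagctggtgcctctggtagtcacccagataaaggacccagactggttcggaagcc
Both strands were searched for the AP-1 motif TGANTCA, the C/EBP motif TTNNGNAA and the NF-kB consensus motif. Il1f8 held 1 AP-1 match, which begins 236 bases before the start, and AP-1 matches occur in 6.75% of the 32851 windows of this length in the table. Neither window held a C/EBP match, found in 36.8% of windows, or an NF-kB match, found in 3.90%. A match or its lack in this window describes its letters and says nothing about binding.

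Factors that bind such motifs, listed together with nuclear relatives of Nfkbiz, moved both ways. Of 8 measured among the 23 listed, 3 rose and 2 fell, where 4.47% of all genes rose and 4.43% fell. Relb, an NF-kB subunit, rose by 0.64 ± 0.09 (SE; limma adjusted p = 0.000922), and Nfkbid, a nuclear relative of Nfkbiz, rose by 0.46 ± 0.09. Rela, the main activating subunit, rose by 0.23 ± 0.05, a call lost without knockout replicate 1 or wild-type replicate 1 or 2 (limma adjusted p of 0.0506 to 0.059). Fos, a component of AP-1, fell by 0.54 ± 0.06 and Cebpa, a C/EBP factor, by 0.43 ± 0.06. Bcl3, another nuclear relative of Nfkbiz, had a log2 fold change of -0.22 ± 0.07 (limma adjusted p = 0.0932), and the other two measured genes, both of AP-1, were not called.

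Among neighbours and relatives in the interleukin-1 family, the change was uneven. Il1f10, the gene of IL-38 and the nearest measured neighbour after Il1f6, had log2 signals of 4.85 to 5.11 in Nfkbiz KO arrays and 4.90 to 5.29 in wild-type arrays. The groups overlapped, with a log2 fold change of -0.06 ± 0.09 (SE; limma adjusted p = 0.792), in signals not far above the array medians. On the other side of Il1f8, Hnmt, a histamine-inactivating enzyme gene, had a log2 fold change of -0.16 ± 0.06 (limma adjusted p = 0.153) at signals of 2.45 in Nfkbiz KO and 2.61 in wild-type arrays, below the lower quartiles. Of the 4 measured interleukin-1 ligands outside the IL-36 group, Il1a alone was called, where 4.43% of all genes fell and 4.47% rose. Il1a, the alarmin stored in epidermal cells, had log2 signals of 9.63, 9.52, 9.52 and 9.65 in Nfkbiz KO arrays, against 10.49, 10.49, 10.54 and 10.40 in wild-type arrays, and fell by 0.90 ± 0.06 (SE). Il1b, made mainly by myeloid cells, had a log2 fold change of -0.14 ± 0.06 (limma adjusted p = 0.226). The alarmin gene Il33 had -0.24 ± 0.10 and Il18, an inflammasome substrate, had 0.03 ± 0.07, with limma adjusted p of 0.217 and 0.861.

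The IL-36 genes were set against Il1f10 and Il1a in the same way as against each other, in 6 comparisons chosen after the values were seen. The log2 fold change of Il1f6 minus that of Il1f10 was -3.05 ± 0.28 (SE), and minus that of Il1a it was -2.21 ± 0.25, with every Nfkbiz KO array below every wild-type array in both. Il1f9 minus Il1a was higher in every Nfkbiz KO array than in any wild-type array, by 0.41 ± 0.10. Each of these 3 had an exact permutation p of 0.0286, the smallest possible, and 0.0571 after adjustment over the 6, so none passed. Il1f8 minus Il1f10 differed by -0.48, with a 95% interval of -1.09 to 0.13, and Il1f9 minus Il1f10 by -0.43, with -0.87 to 0.01 (exact permutation p = 0.0857 and 0.0571, both 0.0857 adjusted). Il1f8 minus Il1a differed by 0.36 (exact permutation p = 0.0857, also after adjustment).

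On the receiving side, the IL-36 receptor gene Il1rl2 and Il1rap were not analysed here. Of 4 measured relatives among the 10 genes listed, 2 rose, 1 fell and 1 was not called. Over all genes, 4.47% rose and 4.43% fell. Il18r1, the ligand-binding chain of the interleukin-18 receptor, had log2 signals of 7.18, 7.05, 6.99 and 7.01 in Nfkbiz KO arrays, against 6.16, 6.17, 5.97 and 6.06 in wild-type arrays. All knockout arrays were higher, and Il18r1 rose by 0.97 ± 0.06 (SE; limma adjusted p = 3.40e-06). Sigirr, an inhibitory receptor of the family, rose by 0.32 ± 0.07, a call lost without wild-type replicate 2 (limma adjusted p = 0.0518). Il1r2, a decoy receptor for interleukin-1, fell by 0.27 ± 0.06 at signals near or below the array medians.

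Only 4 of the 19 adaptor and kinase genes listed were measured. Of these, 1 rose and none fell, where 4.47% of all genes rose and 4.43% fell. Tnip1, an inhibitor of NF-kB activation, rose by 0.24 ± 0.05 (SE; limma adjusted p = 0.0154), a call lost without knockout replicate 1 or wild-type replicate 2 (limma adjusted p = 0.0501 and 0.0512). Myd88, the adaptor of the IL-36 receptor, had a log2 fold change of -0.21 ± 0.06 and the kinase gene Irak2 -0.14 ± 0.05, with limma adjusted p of 0.0563 and 0.142. The genotypes did not overlap for 3 of the 4: every Nfkbiz KO array was above every wild-type array for Tnip1, as for 7.91% of all genes, and below for Myd88 and Irak2, as for 7.97%. Myd88 passed in 4 of 14 alternatives, among them leaving out the lowest 25% of genes (limma adjusted p = 0.0373). Interleukin-17 and Toll-like receptor inputs induce IkBz in keratinocytes. Among 8 measured genes of these inputs, 2 fell and none rose, where 4.43% of all genes fell and 4.47% rose. The 2 that fell were Traf3ip2, the adaptor of the interleukin-17 receptor, by 0.32 ± 0.05 and Ly96, the partner of Tlr4, by 0.32 ± 0.07. Il17rc, a chain of the interleukin-17 receptor, had -0.18 ± 0.05 (limma adjusted p = 0.0569), and passed in 3 of 14 alternatives.

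IL-36 proteins need trimming by proteases to become fully active. None of the 5 measured genes of 7 listed for this step and its inhibitors was called, with log2 fold changes of -0.16 to 0.02 by limma. The neutrophil protease genes Elane, Prtn3 and Ctsg had mean signals of 3.80 to 4.01 in Nfkbiz KO and 3.83 to 3.99 in wild-type arrays, below the array medians. Ctss, the cathepsin S gene, had 5.11 in Nfkbiz KO and 5.27 in wild-type arrays.

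**Figure D3:**
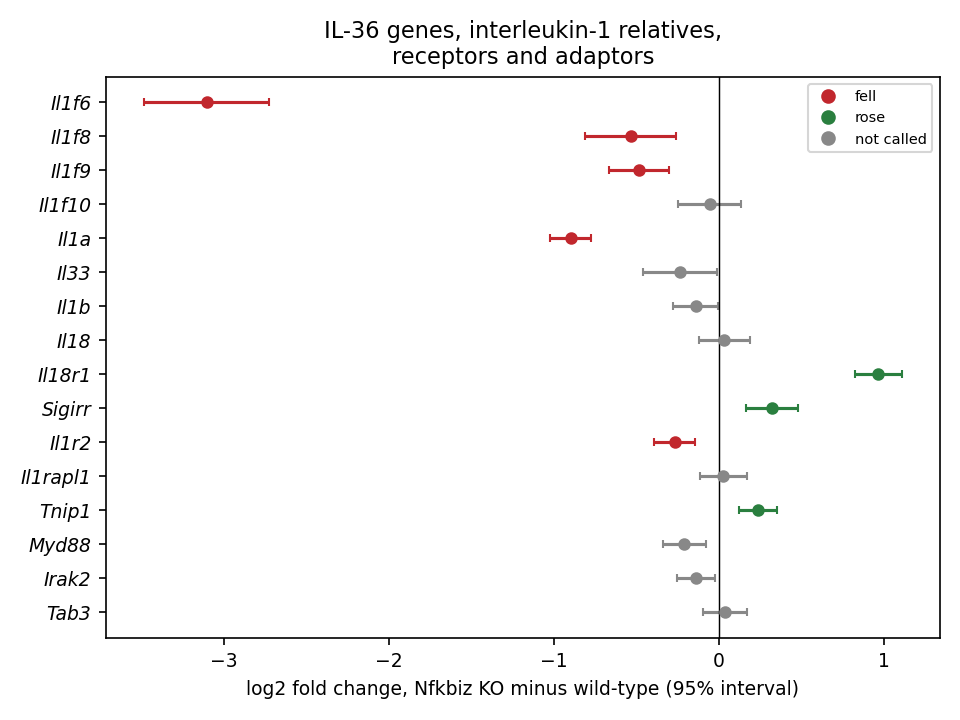
Log2 fold change, Nfkbiz KO minus wild-type, with 95% intervals from limma for the 3 IL-36 genes, their relatives in the interleukin-1 family, receptors and adaptors, coloured by call at an adjusted p of 0.05. Il1f6 lies at -3.11, far left of Il1f8, Il1f9 and Il1a, and Il18r1 lies furthest right at 0.97.

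Genes known to respond to IL-36 were mostly lower in the same arrays. Of 17 measured among the 22 listed, 13 fell, 2 rose and 2 were not called, where 4.43% of all genes fell and 4.47% rose. Their median log2 fold change was -0.85, against -0.01 over all 9294 genes. The list was drawn up with earlier results of these data known, so these figures describe it and are no test of an IL-36 response. Most of these genes also respond to interleukin-1 or interleukin-17 and several to IkBz itself, and no culture here was given IL-36 or had it blocked. Lcn2, the gene of the siderophore-binding lipocalin-2, had log2 signals of 3.52, 3.10, 3.17 and 2.94 in Nfkbiz KO arrays, against 7.01, 6.48, 6.77 and 6.70 in wild-type arrays. Csf3, the gene of the neutrophil growth factor G-CSF, had 5.94, 5.58, 5.71 and 5.64 in Nfkbiz KO arrays, against 8.06, 7.89, 7.93 and 8.08 in wild-type arrays. In neither did the groups overlap, and 3 of the 4 knockout signals of Lcn2 lay below the lower quartiles, so its fold describes signals only. The beta-defensin genes Defb4 and Defb3, counted among the 13, had low signals in both genotypes. Their means were 4.23 and 3.39 in Nfkbiz KO and 4.65 and 3.77 in wild-type arrays, so their falls too describe signals only. The chemokine gene Ccl20 fell by 1.91 ± 0.05 (SE), the GM-CSF gene Csf2 by 1.35 ± 0.09, the neutrophil chemokine gene Cxcl5 by 1.04 ± 0.09 and the calprotectin subunit gene S100a8 by 1.03 ± 0.05, with limma adjusted p of at most 2.16e-05. The genes that rose, chosen for naming once their values were known, were Il23a, a subunit of interleukin-23, by 0.42 ± 0.07 and Tnf by 0.27 ± 0.05. Those not called, named in the same way, were Il6 and Il20, with log2 fold changes of -0.03 and 0.01, Il6 at signals of 2.37 in Nfkbiz KO and 2.40 in wild-type arrays.

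**Figure D4:**
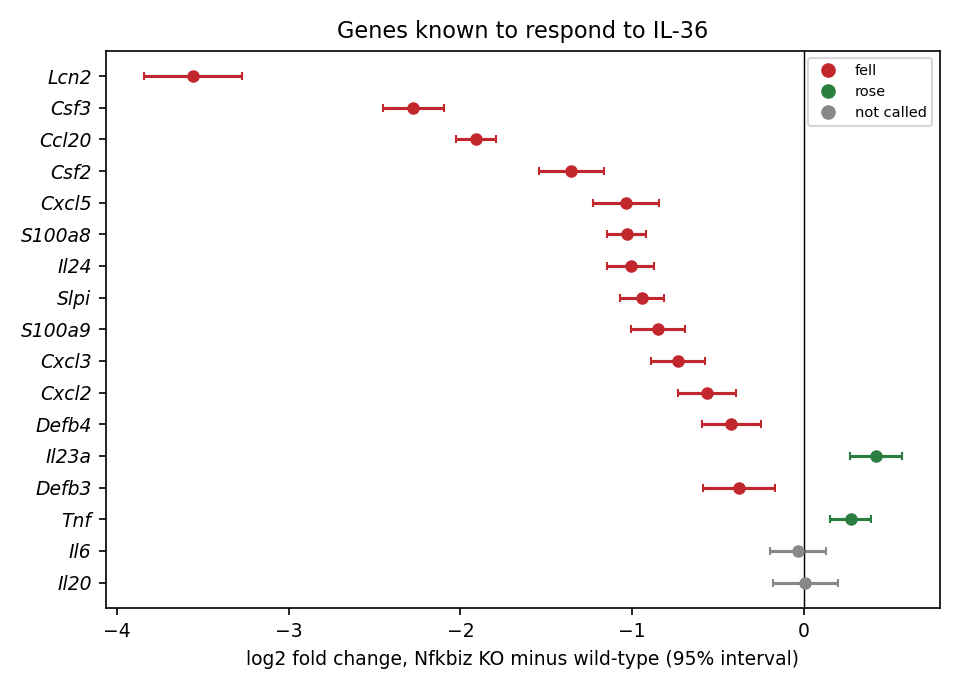
Log2 fold change, Nfkbiz KO minus wild-type, with 95% intervals from limma for 17 genes known to respond to IL-36, in order of size and coloured by call. A total of 13 lie left of 0 as called, with Lcn2 at -3.56 from knockout signals near or below the lower quartiles of the arrays, and Il23a and Tnf lie to the right.

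The genes nearest in profile to each IL-36 gene were chosen by their likeness over these same arrays, so they are a description. Likeness was measured as the root mean square difference between profiles over the 8 arrays, each gene centred on its wild-type mean, so a small value means a like change and like array-to-array deviations. Nearest to Il1f6 were Lcn2 (0.44), the cornified envelope precursor genes Sprr2d (0.56) and Sprr2f (0.58), and Csf3 (0.66). These distances are large, since few genes changed as much. Sprr2f had log2 signals of 4.38, 5.45, 5.09 and 5.52 in Nfkbiz KO arrays and 7.38, 7.68, 8.06 and 7.84 in wild-type arrays, and its lowest knockout array was replicate 1, while Lcn2, like Il1f6, was lowest in knockout replicate 4. Sprr2 genes are close relatives whose probe sets may share targets.

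Nearest to Il1f8 was Il1f9, at 0.10, followed by Dsg1a, the gene of a desmosomal cadherin of the upper epidermis, at 0.11, then Teddm3 at 0.11 and Lypd5 at 0.12. Dsg1a had log2 signals of 6.03, 6.54, 6.48 and 6.33 in Nfkbiz KO arrays, against 6.76, 6.94, 6.97 and 6.59 in wild-type arrays. Like Il1f8, it was lowest in knockout replicate 1 and wild-type replicate 4, and it fell by 0.47 ± 0.12 (SE; limma adjusted p = 0.03). The calls of Dsg1a and Lypd5 were lost without knockout replicate 1 or 4 or wild-type replicate 2 or 3, that of Dsg1a also without wild-type replicate 1 and that of Lypd5 also without knockout replicate 3, with limma adjusted p reaching 0.083 and 0.0668. Dsg1a belongs to a cluster of near-identical genes, so its signal may include theirs.

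Nearest to Il1f9 were Tmem50b (0.06), Cers3 (0.06), Gdpd3 (0.06) and Pof1b (0.07). Cers3, the ceramide synthase that makes the very long ceramides of the skin barrier, fell by 0.45 ± 0.06 (SE; limma adjusted p = 0.00101), with signals of 9.14, 9.36, 9.25 and 9.29 in Nfkbiz KO arrays and 9.65, 9.72, 9.83 and 9.64 in wild-type arrays. Pof1b, the gene of an actin-binding protein of epithelial junctions, fell by 0.43 ± 0.08. Both were lowest in knockout replicate 1, as Il1f9 was.

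**Figure D5:**
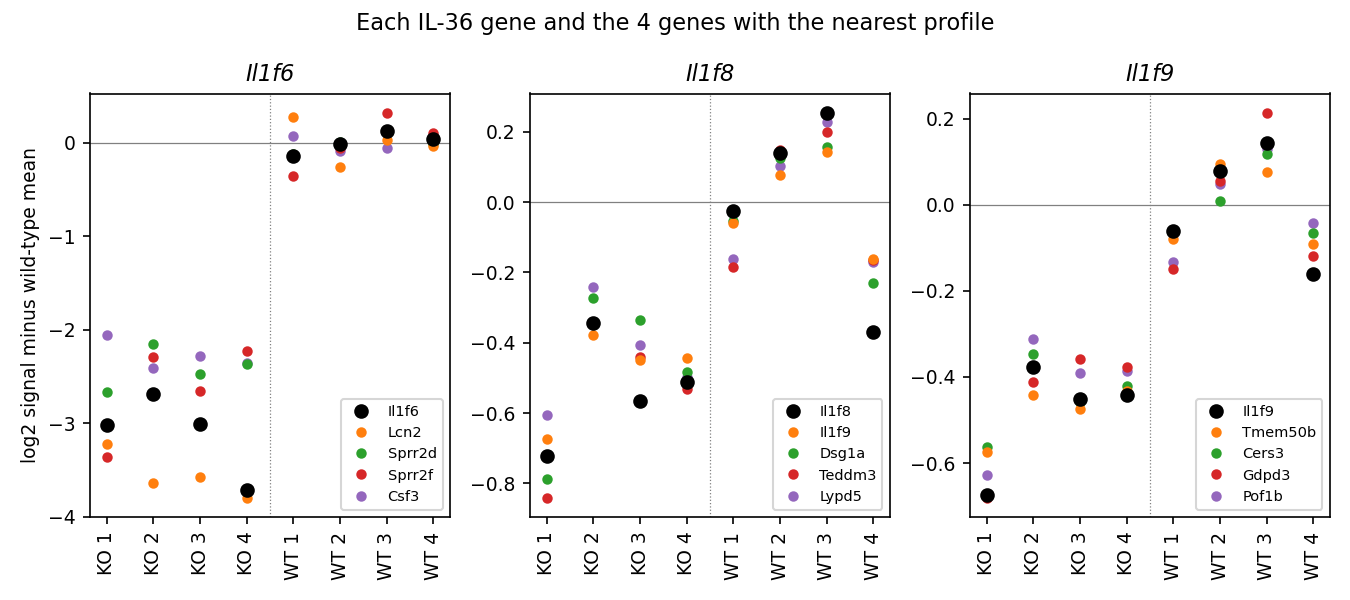
Log2 signal minus the gene's own wild-type mean in each of the 8 arrays, Nfkbiz KO (KO) on the left and wild-type (WT) on the right of the dotted line, for each IL-36 gene in black and the 4 genes nearest to it in colour, with a scale of its own in each panel. The coloured genes were chosen for lying near the black points, at distances of 0.06 to 0.12 for Il1f8 and Il1f9 and 0.44 to 0.66 for Il1f6.

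Markers of other cells were read in the same arrays. Of 12 leukocyte markers, 1 fell and none rose, where 4.43% of all genes fell and 4.47% rose. The log2 fold changes of the 12 ran from -0.25 to 0.06, with a median of -0.05. Tyrobp, a signalling adaptor of myeloid cells, was the one called, falling by 0.25 ± 0.07 (SE; limma adjusted p = 0.0367, lost in 10 of 14 alternatives, where it reached 0.0925). The summed log2 signal of the 12 was 58.4 to 59.3 in Nfkbiz KO and 59.6 to 60.7 in wild-type arrays. The means of single markers ran from 2.90 to 10.01 in Nfkbiz KO and from 2.91 to 9.95 in wild-type arrays. The macrophage gene Cd68 averaged 6.30 in Nfkbiz KO and 6.53 in wild-type arrays, a log2 fold change of -0.24 (limma adjusted p = 0.131). Adgre1, another macrophage gene, had -0.22 and the receptor chain gene Fcer1g -0.19, with limma adjusted p of 0.0946 and 0.0777, and every Nfkbiz KO array of Fcer1g was below every wild-type array. The further markers Cd74 and Cd3d had log2 fold changes of -0.08 and -0.07, and their groups overlapped. Among the dim markers were the myeloid integrin gene Itgam and the Langerhans cell gene Cd207, named with values known, at 2.90 and 3.44 in Nfkbiz KO and 2.91 and 3.45 in wild-type arrays. Of 6 fibroblast markers, 5 fell and Postn, the periostin gene, rose, where 4.43% of all genes fell and 4.47% rose. The falls ran from a log2 fold change of -1.02 for Twist2 to -0.48 for Lum, with -0.97 for Dcn and -0.85 for Dpt. Twist2, Dcn, Dpt and Thy1 fell by more than Il1f8 (-0.54) and Il1f9 (-0.49), and Lum did not. In all 5, every Nfkbiz KO array was below every wild-type array, as for 7.97% of all genes. Postn rose by 1.47 ± 0.09 (SE). With Postn included, the sums were 36.3 to 37.5 in Nfkbiz KO and 39.0 to 39.7 in wild-type arrays. Of 3 melanocyte markers, Pmel, a pigment granule gene, fell by 0.28 ± 0.06, with sums of 27.8 to 28.7 in Nfkbiz KO and 28.9 to 29.1 in wild-type arrays. Their part in the fall of the IL-36 genes was not tested.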

How the data were processed

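The authors' deposited table gives a signal for each of 11373 probe sets on 8 arrays. The authors' deposited values, from 1.57 to 13.86, were read as log2 signals, and how they were summarised, normalized and mapped to a genome build is not given in the sources used here. Per the labels, total RNA purified by Trizol and a Qiagen column was labelled with biotin. Through the platform's annotation, 9374 probe sets had 1 symbol, 479 several and 1520 none. The brightest probe set with 1 symbol stood for its gene, which left 9294 genes. Of these, 9201 matched the reference gene table, used only for gene order.

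Differences were tested with limma 3.58.1 in R 4.3.3 (lmFit and eBayes, no covariate), Nfkbiz KO minus wild-type, with Benjamini-Hochberg adjustment over all genes and a threshold of 0.05. Fell, rose and called refer to this test. Differences between members used exact two-sided permutation tests over 70 splits of the arrays. The fit was tested on simulated data. Arrays of a genotype differed with an SD of 0.157 to 0.175 across probe sets, so none was a duplicate. Precision is limited by the number of arrays.

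The members and gene lists were chosen with earlier results of these data known. Genes named are the members, up to 6 measured genes of each list with the largest change, the 7 closest interleukin-1 relatives where measured, the 4 nearest profiles of each member and the measured genes among 5 on either side of the cluster. A further 7 were added once values were known: S100a9, Il23a, Tnf, Il6, Il20, Itgam and Cd207. Defb3 and Defb4, named later for their low signals, are not among the 77 named genes of the checks below. The alternatives were array medians set to 0, another quantile normalization, a filter on the dimmest 25% of genes, averaging the probe sets of a gene, a variance trend, a replicate block, and the omission of each array in turn.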

Additional observations from a re-analysis of the deposited data

Results flagged for a closer look

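A single array stood far from the other 3 of its genotype in 7 of 154 groups checked, over 77 named genes, and chance flags about 1 in 20 groups. None was in an IL-36 gene. In Nfkbiz KO replicate 1, Il33 was at 6.84 on the log2 scale with the others at 7.26 to 7.29, and Gdpd3, one of the nearest profiles of Il1f9, was at 6.76 with the others at 7.03 to 7.09. In wild-type arrays, Relb was at 6.97 in replicate 4 with the others at 6.56 to 6.60, Twist2 at 8.44 in replicate 2 with the others at 8.53, and Ctss at 5.51 in replicate 2 with the others at 5.17 to 5.21. Lum was at 4.92 in wild-type replicate 3 with the others at 5.13 to 5.17, and Adgre1 at 3.70 in the same array with the others at 3.95 to 3.99.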

How the results depend on the processing

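Il1f6 and Il1f9 kept their direction and call in all 14 alternatives, with log2 fold changes of -3.25 to -2.90 and -0.54 to -0.42. Il1f8 kept its direction throughout and its call in 10 of 14, with log2 fold changes of -0.66 to -0.45 and limma adjusted p of up to 0.0628 when single arrays were left out. The difference of Il1f6 from Il1f8 ranged from -2.66 to -2.36 and that from Il1f9 from -2.73 to -2.40 when arrays were left out. With the replicate block these differences were -2.57 and -2.62, and the exact sign-flip p was 0.125 for both, the smallest that 4 pairs can give. That of Il1f8 from Il1f9 lay between -0.12 and -0.01 and did not pass in any setting. The replicate numbers did not pair the arrays (correlations of deviations between same-numbered arrays of -0.05 to 0.09, and 2 of 8 arrays correlated best with their own number), and 659 genes were called with the block, against 827 without it. Over all alternatives 598 to 1124 genes were called. Centred on array medians, 482 were higher and 314 lower, against 415 and 412 as reported. The lists of the IL-36 pathway, its inputs and the motif factors together held 25 to 32 called genes in 11 of the 14 alternatives. The other quantile normalization, the averaging of probe sets and the variance trend were not counted for them. In those 11, 12 to 13 of the 17 measured genes known to respond to IL-36 fell and 2 rose. As reported, 4.43% of all genes fell and 4.47% rose. Among the other named genes no call reversed. Calls were lost 23 times and gained 3 times when single arrays were left out, and lost 4 times and gained 12 times in the other alternatives, where Rela lost its call with the replicate block (limma adjusted p = 0.0549). Without knowledge of background, low signals such as Il1f6 in Nfkbiz KO arrays limit how far a fold can be read.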
